A study of Mus musculus with 6 samples.

Results

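The nuclear-encoded subunits of the mitochondrial respiratory chain and of ATP synthase were measured in the mouse hypothalamus. Members were taken by gene symbol, reached through the transcript accession of each array probe: Ndufa, Ndufb, Ndufc, Ndufs and Ndufv genes for complex I (NADH dehydrogenase), Sdha to Sdhd for complex II (succinate dehydrogenase), Uqcr genes for complex III (the cytochrome bc1 complex), Cox4i, Cox5, Cox6, Cox7 and Cox8 genes for complex IV (cytochrome c oxidase) and Atp5 genes for complex V (ATP synthase). The arrays held a probe for 83 such genes, of 19751 genes with a symbol and a probe: 37 of complex I, 4 of complex II, 8 of complex III, 18 of complex IV and 16 of complex V. A gene table of build GRCm38.p6 listed 105 entries under these names, 87 of them protein-coding and 18 pseudogenes; the protein-coding genes Atp5g1, Ndufb1, Ndufb4b and Ndufb4c were not analysed here. Of the 83 genes, 82 passed the filter for signal above background, and all 82 were well above background on all 6 arrays. The exception was Cox8c, a testis isoform of a complex IV subunit, whose probe was well above background on 0 arrays.

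Each of 3 groups had 2 single-colour arrays of hypothalamic RNA from male C57BL/6J mice aged 16 weeks, and all mice carried the homozygous floxed allele TrspFlox/Flox. Trsp-RIPKO mice carried RIP-Cre in addition, Trsp-Ins1KO mice carried Ins1-Cre, and TrspFF mice, the controls, are labelled with no Cre. Trsp encodes the transfer RNA that inserts selenocysteine into selenoproteins. Both drivers are insulin gene promoters made for pancreatic beta cells, and RIP-Cre is also known to be active in part of the hypothalamus, so a deletion would touch at most some of the cells in the dissected tissue. The gene table held 0 entries named Trsp, so loss of the targeted gene was not checked. The labels number the arrays of a genotype but do not say that each came from a separate mouse, and p-values therefore cover the spread between these arrays alone, which may be technical. In bulk tissue, fewer cells of a type and less RNA per cell cannot be told apart.

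The 4 enzyme complexes of the respiratory chain pass electrons from NADH and succinate to oxygen. Complexes I, III and IV pump protons across the inner mitochondrial membrane, and ATP synthase uses the returning protons to make ATP. Most subunits of the 4 complexes and of ATP synthase are encoded in the nucleus and imported, while a core set comes from mitochondrial DNA. Neurons depend heavily on this pathway, and several complex IV subunits exist as a general isoform and an isoform of muscle, lung or testis.

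Levels are log2 of the processed signal minus the 75th percentile of the same array, so a level of 0 equals that percentile and levels of different probes are not compared with each other. The 75th percentile lay between 1433 and 2205 signal units, 69.7% to 72.7% of spots were well above background, and 0 spots were saturated. The 2 TrspFF arrays were on a slide of their own with its own scan, apart from the 4 knockout arrays, so slide and genotype cannot be told apart in a comparison with TrspFF, while Trsp-RIPKO and Trsp-Ins1KO arrays were on the same slide. Both comparisons with TrspFF use the same 2 TrspFF arrays. Group names follow the scanner files; the deposited value table has the names Trsp-RIPKO and Trsp-Ins1KO exchanged, and under its names the 2 knockouts trade places in each result. One array stood apart: the mean level of 16 choroid plexus markers was -0.36 and -0.11 (Trsp-RIPKO), -0.67 and -3.11 (Trsp-Ins1KO), and 0.26 and -0.30 (TrspFF), lowest on Trsp-Ins1KO replicate 2.

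Markers of neurons were present throughout, with 12 of 12 well above background on all 6 arrays. Their mean level was 3.90 and 3.82 (Trsp-RIPKO), 3.92 and 3.99 (Trsp-Ins1KO), and 3.90 and 3.84 (TrspFF), a narrow range. Hypothalamic markers, mostly neuropeptides, had 16 tested genes with a mean level of 1.34 and 1.21 (Trsp-RIPKO), 1.64 and 1.61 (Trsp-Ins1KO), and 1.29 and 1.13 (TrspFF), and 15 of them were well above background on all arrays. Hypothalamic transcripts were thus measured on every array, with the higher means on both arrays labelled Trsp-Ins1KO.

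Promoters of these genes are known for sites of NRF1, ETS factors such as GABP, and YY1, which are general regulators of respiratory genes. RefSeq promoter windows of build GRCm38.p6, running from 250 bases before to 50 after the annotated start, were matched to 67 of the 82 members (72 windows). The NRF1 motif GCGCANGCG was present on either strand in 21 of the 72 windows (29.2%), against 6.25% of all 32851 windows of the table. The ETS motif CCGGAAG was present in 17 (23.6%), against 8.86%, and the YY1 motif AAGATGGC in 10 (13.9%), against 2.75%. A match is a description of the letters and not evidence of binding. The windows shown belong to members that the results below turn on: Ndufa3, Uqcr11 and Atp5k, which by their brightest probes had the highest differences of their complexes in Trsp-Ins1KO against TrspFF, then Cox6a1, the general partner of the muscle isoform Cox6a2, and Cox8b, a muscle isoform with the lowest difference there. Capitals mark motif matches on either strand, and overlapping matches run together.
Ndufa3, chr7:3617123-3617422, plus strand, 1 YY1 match: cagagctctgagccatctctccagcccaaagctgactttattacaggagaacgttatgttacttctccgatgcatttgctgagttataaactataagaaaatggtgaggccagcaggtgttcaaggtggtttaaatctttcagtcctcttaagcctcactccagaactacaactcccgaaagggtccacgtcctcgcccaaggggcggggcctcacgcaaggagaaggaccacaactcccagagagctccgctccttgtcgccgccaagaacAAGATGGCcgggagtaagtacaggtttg
Uqcr11, chr10:80406772-80407071, minus strand, 1 NRF1 and 1 ETS match: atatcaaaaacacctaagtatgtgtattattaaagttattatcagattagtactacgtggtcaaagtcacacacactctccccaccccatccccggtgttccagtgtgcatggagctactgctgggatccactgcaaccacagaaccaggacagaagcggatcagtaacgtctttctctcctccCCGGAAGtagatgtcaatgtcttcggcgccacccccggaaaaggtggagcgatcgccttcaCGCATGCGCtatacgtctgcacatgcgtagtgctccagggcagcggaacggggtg
Atp5k, chr5:108434350-108434649, minus strand, 2 NRF1 matches in 1 overlapping run and 1 ETS match: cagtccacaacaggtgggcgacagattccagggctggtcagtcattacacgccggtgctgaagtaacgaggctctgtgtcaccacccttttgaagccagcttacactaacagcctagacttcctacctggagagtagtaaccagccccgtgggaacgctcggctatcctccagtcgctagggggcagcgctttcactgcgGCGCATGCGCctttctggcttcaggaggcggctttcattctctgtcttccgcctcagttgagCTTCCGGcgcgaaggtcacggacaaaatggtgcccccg
Cox6a1, chr5:115348909-115349208, minus strand, 3 NRF1 matches and 1 ETS match: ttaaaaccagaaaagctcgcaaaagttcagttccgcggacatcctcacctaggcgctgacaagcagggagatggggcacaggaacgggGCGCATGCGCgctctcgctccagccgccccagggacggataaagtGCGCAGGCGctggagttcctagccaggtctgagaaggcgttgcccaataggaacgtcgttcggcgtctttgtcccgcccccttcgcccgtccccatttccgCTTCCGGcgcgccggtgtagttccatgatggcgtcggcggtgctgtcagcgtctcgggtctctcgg
Cox8b, chr7:140900397-140900696, minus strand, 0 matches of these motifs: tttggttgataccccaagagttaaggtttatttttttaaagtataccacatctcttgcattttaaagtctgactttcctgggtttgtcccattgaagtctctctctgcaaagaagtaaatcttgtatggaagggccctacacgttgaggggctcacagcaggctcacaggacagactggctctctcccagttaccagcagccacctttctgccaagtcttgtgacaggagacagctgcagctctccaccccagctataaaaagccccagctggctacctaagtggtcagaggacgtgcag
Windows of other general subunits, among them those of Atp5b, Cox5a and Ndufv1, held 0 matches of the 3 motifs too.

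Across the 6 arrays the subunit genes moved mostly as a block. Measured from the mean of each gene over the 6 arrays, the median of the 82 genes was -0.05 and -0.12 on the arrays labelled Trsp-RIPKO, 0.16 and 0.14 on those labelled Trsp-Ins1KO, and -0.01 and -0.10 on the TrspFF arrays. On the same arrays 26 and 14, 73 and 75, and 38 and 17 of the 82 genes lay above their own mean. Both Trsp-Ins1KO arrays were above the other 4 for 54 of 82 members (65.9%), against 18.3% of all 22863 tested genes. Both Trsp-RIPKO arrays were below the other 4 for 20 members (24.4%), against 14.8% of all tested genes. The upper part of the whole signal distribution also stood highest on the Trsp-Ins1KO arrays: the level that 1% of the probes on an array exceeded was 5.48 and 5.38 (Trsp-RIPKO), 5.64 and 5.62 (Trsp-Ins1KO), and 5.49 and 5.37 (TrspFF). Most members lie in the upper part, 76 of 82 having a mean level above 0, the 75th percentile of the array.

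**Figure D1:**
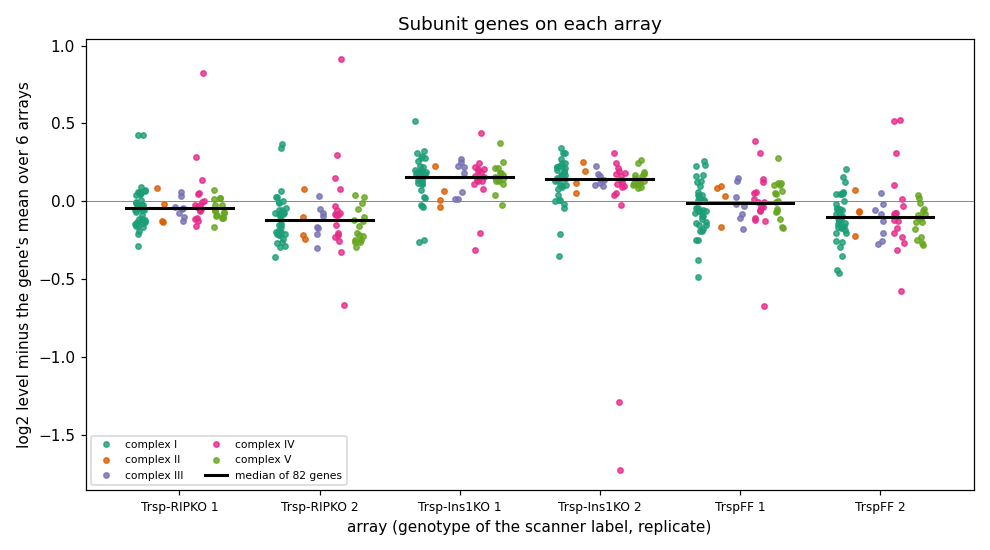
Each point is 1 of the 82 tested subunit genes on 1 array, coloured by complex, and the y axis gives its log2 level minus its own mean over the 6 arrays; the black bar is the median of the 82 genes. The medians are 0.16 and 0.14 on the Trsp-Ins1KO arrays and between -0.12 and -0.01 on the other 4, and the lowest points, on Trsp-Ins1KO replicate 2, are Cox6a2 and Cox8b.

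In the arrays labelled Trsp-RIPKO against TrspFF, subunit genes were about as often higher as lower. Their median difference was -0.018, 37 of 82 were higher, and the median of all tested genes was -0.014. By limma with Benjamini-Hochberg adjustment over all 22863 genes, 0 of the 82 passed 0.05, while 1.66% of all tested genes did; at an unadjusted p under 0.05 there were 8 members (9.76%), against 24% of all genes. Both Trsp-RIPKO arrays lay above both TrspFF arrays for 22 members (26.8%, against 28% of all genes) and below them for 22 (26.8%, against 30.2%). The medians of complexes I to V were -0.01, -0.15, -0.04, -0.01 and -0.03. Leaving out 1 array moved the median of the 82 genes between -0.083 and 0.028.

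In the arrays labelled Trsp-Ins1KO against TrspFF, 69 of 82 subunit genes were higher, with a median difference of 0.20 (1.15-fold) against 0.02 for all tested genes. Again 0 members passed limma after adjustment (1.82% of all tested genes did), the smallest adjusted p being 0.0579 for Ndufa3. At an unadjusted p under 0.05 there were 32 members (39%), 31 of them higher, against 26% of all genes. That count was unchanged without TrspFF replicate 1 and lower without any other array. Each such fit leaves 1 array in a group and fewer degrees of freedom. The share of all genes in those fits is not given here. Both Trsp-Ins1KO arrays lay above both TrspFF arrays for 57 members (69.5%, against 31.7% of all genes) and below them for 4 (4.88%, against 26.4%). The medians of complexes I to V were 0.22, 0.15, 0.19, 0.21 and 0.17. Without Trsp-Ins1KO replicate 2, the array with few choroid plexus transcripts, the median was 0.21.

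In the arrays labelled Trsp-RIPKO against those labelled Trsp-Ins1KO, which share a slide and scan, 75 of 82 subunit genes were lower. The median difference was -0.26 (0.835-fold), against -0.05 for all tested genes, and the complex medians were -0.27, -0.20, -0.22, -0.24 and -0.26. After adjustment 0 members passed limma, against 0.0175% of all tested genes; at an unadjusted p under 0.05 there were 41 (50%), 38 of them lower, against 18.4% of all genes. That count was lower when any 1 of the knockout arrays was left out. Each such fit leaves 1 array in a group and fewer degrees of freedom. The share of all genes in those fits is not given here, so the fall does not set members apart from other genes. Both Trsp-RIPKO arrays lay below both Trsp-Ins1KO arrays for 69 members (84.1%, against 35.7% of all genes) and above them for 6 (7.32%, against 22.9%). This comparison and the preceding one share the Trsp-Ins1KO arrays and are not separate evidence.

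Markers of other cell types and regions moved in the same comparisons, and their part in the subunit values was not tested. The mean level of 12 endothelial markers was -0.22 and -0.16 (Trsp-RIPKO), -1.01 and -0.82 (Trsp-Ins1KO), and -0.66 and -0.32 (TrspFF); 0 of 12 were higher in Trsp-Ins1KO than in TrspFF (median -0.37), and the median between the knockouts was 0.80. The mean level of 12 oligodendrocyte markers was 2.93 and 2.87 (Trsp-RIPKO), 2.50 and 2.69 (Trsp-Ins1KO), and 2.75 and 3.12 (TrspFF); 1 of 12 was higher in Trsp-Ins1KO than in TrspFF (median -0.24), and 12 of 12 were higher in Trsp-RIPKO than in Trsp-Ins1KO. Both lists were thus lowest on the Trsp-Ins1KO arrays, where the subunit genes were highest. Meningeal markers had 0 of 10 higher in Trsp-Ins1KO than in TrspFF (median -0.62), while 10 of 11 microglial and 8 of 10 astrocyte markers were higher (medians 0.23 and 0.073). Striatal markers had medians of -0.61 in Trsp-RIPKO and -0.49 in Trsp-Ins1KO, each against TrspFF. The receptor gene Gpr6 fell by 0.78 in Trsp-RIPKO (limma adjusted p = 0.0294) and by 0.58 in Trsp-Ins1KO (adjusted p = 0.0469), and the adenosine receptor gene Adora2a fell by 2.41 in Trsp-Ins1KO (adjusted p = 0.0375), each against TrspFF. These 3 calls were lost with no filter (limma adjusted p = 0.0936, 0.127 and 0.0909), with the replicate block (0.0761, 0.105 and 0.0967) and when any 1 array was left out, except Adora2a without TrspFF replicate 1 (0.0261). The 3 calls were also lost with only the 2 groups compared (limma adjusted p = 0.0858, 0.136 and 0.117). Both Gpr6 calls were lost with median scaling (0.0507 and 0.0688) and normexp background correction (0.0565 and 0.0695). Gpr6 in Trsp-Ins1KO was lost with quantile normalization (0.0525), cyclic loess (0.0541) and the dimmest probe (0.0525), and Adora2a with cyclic loess (0.0505). All of the 12 endothelial, 12 oligodendrocyte and 12 striatal markers were well above background on all 6 arrays.

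**Figure D2:**
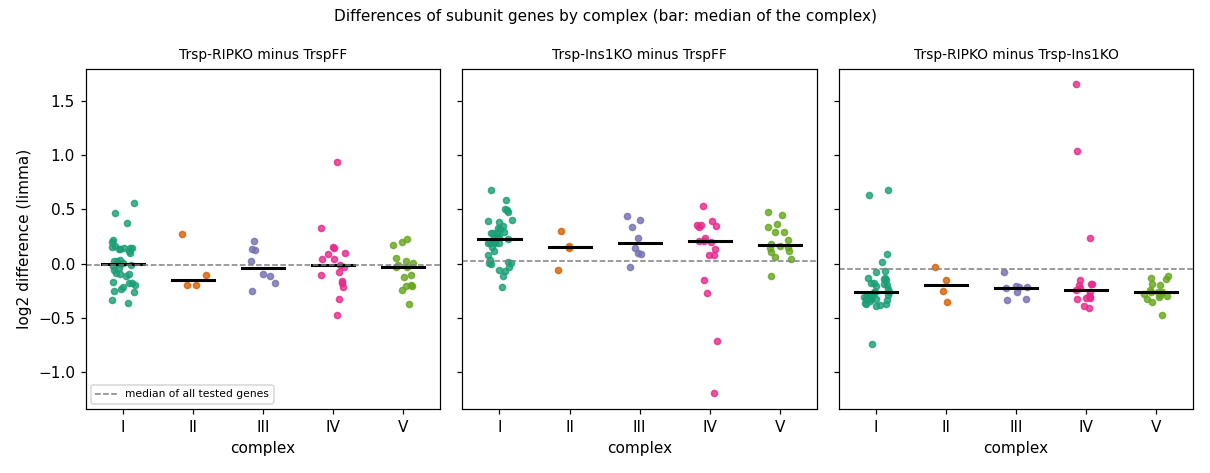
Each point is 1 tested subunit gene, placed by complex on the x axis and by its limma log2 difference on the y axis, for each of the 3 comparisons; bars are complex medians and the dashed line is the median of all tested genes. The complex medians lie between 0.15 and 0.22 for Trsp-Ins1KO minus TrspFF and between -0.27 and -0.20 for Trsp-RIPKO minus Trsp-Ins1KO, while those for Trsp-RIPKO minus TrspFF lie between -0.15 and -0.01.

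How far the subunit genes stand from other genes depended on how the arrays were scaled to each other. With quantile normalization, which gives all arrays 1 distribution, the median difference in Trsp-Ins1KO against TrspFF was 0.037, against 0.035 for all tested genes, and 49 of 82 members were higher; complex I then stood at 0.11 and complex V at -0.0081. Cyclic loess normalization gave 0.045, against 0.0072 for all genes. In Trsp-RIPKO against Trsp-Ins1KO the median stayed below that of all genes. It was -0.10 with quantile normalization (all genes -0.01) and -0.11 with cyclic loess (all genes -0.0037). There 11 and 10 of the 82 members had an unadjusted limma p under 0.05. With the scaling used above, 41 members and 18.4% of all genes did. The share of all genes with these normalizations is not given here, so the counts of 11 and 10 do not set members apart from other genes. Median scaling gave 0.29 in Trsp-Ins1KO against TrspFF and moved the median of all genes to 0.11 there, a shift of about the same size for members and for all genes.

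**Figure D3:**
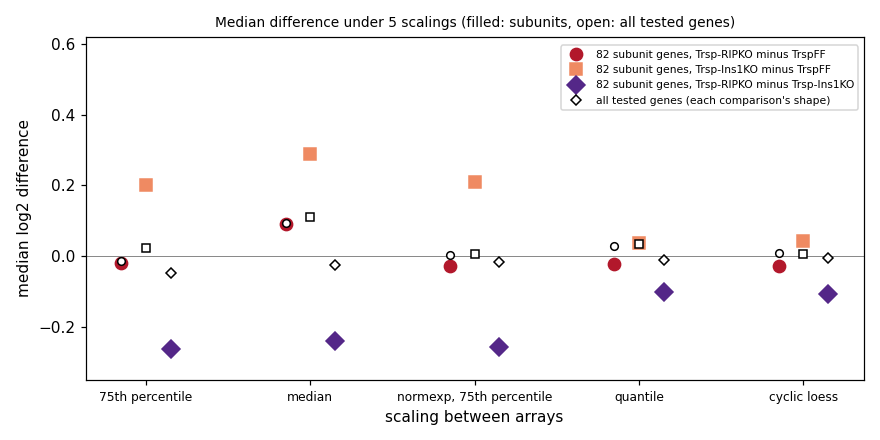
The median log2 difference of the 82 subunit genes (filled) and of all tested genes (open) is plotted for 3 comparisons under 5 ways of scaling the arrays on the x axis. For Trsp-Ins1KO minus TrspFF the filled square lies at 0.20 with the 75th percentile and at 0.037 with quantile and 0.045 with cyclic loess normalization, near the open square; for Trsp-RIPKO minus Trsp-Ins1KO the filled diamond stays below the open one in all 5.

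Complex I takes electrons from NADH at a peripheral arm and passes them to coenzyme Q. Its accessory subunit Ndufa3, in the membrane arm, had the highest difference of any member in Trsp-Ins1KO against TrspFF. Its levels were 5.17 and 5.13 on the arrays labelled Trsp-RIPKO, 5.44 and 5.47 on those labelled Trsp-Ins1KO, and 4.88 and 4.67 on the TrspFF arrays. The 3 pairs did not overlap, with both knockouts above TrspFF. The difference was 0.68 (SE 0.103, limma adjusted p = 0.0579) for Trsp-Ins1KO and 0.38 (SE 0.103, adjusted p = 0.132) for Trsp-RIPKO, each against TrspFF. Ndufa3 passed in Trsp-Ins1KO with normexp background correction (limma adjusted p = 0.0326), with a filter requiring all 6 arrays (0.0469) and with trend and robust moderation (0.0248). It did not pass with quantile normalization, cyclic loess, median scaling, no filter, only the 2 groups compared or the replicate block. With those settings the smallest limma adjusted p of any member lay between 0.0541 and 0.147.

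Subunits of the peripheral arm, where NADH is oxidised, included several of the higher values in the arrays labelled Trsp-Ins1KO. Ndufa2, an accessory subunit of that arm, had levels of 4.88 and 4.68 (Trsp-RIPKO), 5.15 and 5.14 (Trsp-Ins1KO), and 4.64 and 4.48 (TrspFF). Its Trsp-Ins1KO arrays lay above all others, with a difference of 0.59 from TrspFF (SE 0.111, limma adjusted p = 0.0753). Ndufs7, a core subunit that carries an iron-sulfur cluster next to the coenzyme Q site, had levels of 5.06 and 4.99 (Trsp-RIPKO), 5.37 and 5.33 (Trsp-Ins1KO), and 4.93 and 4.82 (TrspFF). Again both Trsp-Ins1KO arrays were highest (difference from TrspFF 0.48, SE 0.0873, limma adjusted p = 0.0718). The core subunits Ndufv1, which binds NADH, Ndufv2 and Ndufs1 differed from TrspFF by 0.19, 0.28 and 0.28 there, and by -0.0095, -0.10 and 0.14 in Trsp-RIPKO. The core subunits Ndufs8 and Ndufs3 stood at 0.21 and 0.017 in Trsp-Ins1KO against TrspFF.

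The lowest complex I member in Trsp-RIPKO against TrspFF was Ndufa8, an accessory subunit of the membrane arm. Its levels were 2.31 and 2.24 (Trsp-RIPKO), 2.65 and 2.50 (Trsp-Ins1KO), and 2.72 and 2.54 (TrspFF). Both Trsp-RIPKO arrays lay below the other 4, and the Trsp-Ins1KO and TrspFF arrays overlapped. The difference from TrspFF was -0.36 in Trsp-RIPKO (SE 0.11, limma adjusted p = 0.151) and -0.059 in Trsp-Ins1KO.

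Ndufb8 and Ndufv3 differed between the TrspFF arrays themselves, in opposite senses. Ndufb8, a membrane-arm subunit often used as a marker of assembled complex I, had levels of 5.52 and 5.45 (Trsp-RIPKO), 6.33 and 6.12 (Trsp-Ins1KO), and 6.07 and 5.37 (TrspFF). Ndufv3, an accessory subunit of the NADH-binding part, had levels of 5.14 and 5.06 (Trsp-RIPKO), 4.47 and 4.37 (Trsp-Ins1KO), and 4.34 and 4.92 (TrspFF). For Ndufb8 TrspFF replicate 1 lay with both Trsp-Ins1KO arrays at the high end and TrspFF replicate 2 with both Trsp-RIPKO arrays at the low end, and for Ndufv3 the same arrays stood the other way round. Ndufb8 was the lowest complex I member in Trsp-RIPKO against Trsp-Ins1KO (-0.74, SE 0.247, limma adjusted p = 0.263) and Ndufv3 the highest (0.68, SE 0.206, adjusted p = 0.263). A second, dimmer probe of Ndufv3 did not show this order, with levels of -0.80 and -0.74 (Trsp-RIPKO), -0.62 and -0.61 (Trsp-Ins1KO), and -0.78 and -0.96 (TrspFF), so the difference between the knockouts was -0.16 by that probe.

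The same order of arrays was present in skeletal muscle markers, whose part in these values was not tested. The mean level of 12 tested muscle markers was -4.06 and -3.98 (Trsp-RIPKO), -2.18 and -2.30 (Trsp-Ins1KO), and -2.50 and -4.21 (TrspFF). Trsp-Ins1KO and TrspFF replicate 1 were thus the high arrays, as for Ndufb8. Fast muscle genes carried it: myosin Myh4 had levels of -4.52 and -4.15 (Trsp-RIPKO), -0.81 and -1.02 (Trsp-Ins1KO), and -0.85 and -4.21 (TrspFF), and 9 of the 12 were well above background on all arrays. Creatine kinase Ckm was well above background on 3 arrays, and Myl2, a slow muscle light chain, ran the other way, with levels of -1.78 and -1.92 (Trsp-RIPKO), -3.24 and -2.92 (Trsp-Ins1KO), and -3.25 and -1.83 (TrspFF). The mitochondrial creatine kinase of muscle, Ckmt2, likewise was well above background on 3 arrays, with levels of -8.09 and -7.27 (Trsp-RIPKO), -5.07 and -5.38 (Trsp-Ins1KO), and -5.58 and -8.01 (TrspFF).

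Complex II oxidises succinate in the citric acid cycle and holds no mitochondrially encoded subunit. The flavoprotein Sdha, which binds succinate, had levels of 3.69 and 3.73 (Trsp-RIPKO), 3.83 and 3.88 (Trsp-Ins1KO), and 3.92 and 3.90 (TrspFF). Trsp-RIPKO arrays were below the other 4 and Trsp-Ins1KO arrays just below TrspFF. Its difference from TrspFF was -0.20 in Trsp-RIPKO (SE 0.0784, limma adjusted p = 0.211) and -0.054 in Trsp-Ins1KO (SE 0.0784, adjusted p = 0.682). The iron-sulfur subunit Sdhb had levels of 4.68 and 4.56 (Trsp-RIPKO), 5.03 and 4.92 (Trsp-Ins1KO), and 4.89 and 4.74 (TrspFF). Here the Trsp-Ins1KO arrays were highest and the Trsp-RIPKO arrays lowest, with a difference between the knockouts of -0.36 (SE 0.103, limma adjusted p = 0.263); by its dimmer probe this was also below 0 (-0.26), with Trsp-RIPKO overlapping TrspFF. Sdhc, a membrane anchor, had levels of 3.15 and 3.14 (Trsp-RIPKO), 3.03 and 3.31 (Trsp-Ins1KO), and 2.90 and 2.84 (TrspFF). All 4 knockout arrays lay above both TrspFF arrays, by 0.28 for Trsp-RIPKO (SE 0.12, limma adjusted p = 0.246) and 0.30 for Trsp-Ins1KO (SE 0.12, adjusted p = 0.2); by its dimmest probe the Trsp-RIPKO difference was -0.29. The other anchor, Sdhd, stood at -0.11 and 0.15.

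Complex III passes electrons from coenzyme Q to cytochrome c. Its small subunit Uqcr11 had levels of 4.95 and 4.82 (Trsp-RIPKO), 5.16 and 5.06 (Trsp-Ins1KO), and 4.71 and 4.64 (TrspFF). Both knockouts lay above TrspFF without overlap, by 0.21 in Trsp-RIPKO (SE 0.0954, limma adjusted p = 0.258) and 0.44 in Trsp-Ins1KO (SE 0.0954, adjusted p = 0.0914). The Rieske iron-sulfur protein Uqcrfs1, which takes electrons from coenzyme Q, had levels of 3.46 and 3.35 (Trsp-RIPKO), 3.58 and 3.66 (Trsp-Ins1KO), and 3.69 and 3.62 (TrspFF). Its Trsp-RIPKO arrays were lowest, -0.25 from TrspFF (SE 0.0914, limma adjusted p = 0.194), and its Trsp-Ins1KO arrays overlapped TrspFF (-0.034). Uqcrb, a subunit next to a coenzyme Q site, had levels of 4.04 and 3.996 (Trsp-RIPKO), 4.39 and 4.32 (Trsp-Ins1KO), and 4.15 and 4.08 (TrspFF). By this probe, the brightest of 3, Trsp-RIPKO lay below TrspFF and Trsp-Ins1KO above it, a difference of -0.34 between the knockouts (SE 0.0823, limma adjusted p = 0.263). The other Uqcrb probes gave -0.31 and -0.26 between the knockouts, but 0.061 and -0.19 in Trsp-Ins1KO against TrspFF. The large core proteins Uqcrc1 and Uqcrc2 differed between the knockouts by -0.075 and -0.21, and the hinge protein Uqcrh by -0.26.

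Complex IV reduces oxygen. Among its general nuclear subunits Cox7a2 was the lowest in Trsp-RIPKO against Trsp-Ins1KO. Cox7a2 had levels of 3.89 and 3.72 (Trsp-RIPKO), 4.24 and 4.19 (Trsp-Ins1KO), and 4.19 and 4.07 (TrspFF). The Trsp-RIPKO arrays lay below the other 4, -0.41 from Trsp-Ins1KO (SE 0.102, limma adjusted p = 0.263). The regulatory subunit Cox4i1 had levels of 6.68 and 6.55 (Trsp-RIPKO), 6.79 and 6.82 (Trsp-Ins1KO), and 6.51 and 6.43 (TrspFF). Both knockouts lay above TrspFF, and Trsp-Ins1KO by 0.34 (SE 0.0894, limma adjusted p = 0.115). Cox5a, which binds a thyroid hormone metabolite, and the zinc-binding Cox5b stood at 0.08 and 0.24 in Trsp-Ins1KO against TrspFF, and at -0.22 and -0.08 in Trsp-RIPKO. Of the small subunits, Cox6c and Cox7c stood at 0.21 and 0.36 in Trsp-Ins1KO against TrspFF, and Cox7b at 0.21. The direction of Cox7c rests on its brightest probe: the other 2 gave -0.39 and -0.25 there.

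Of the isoforms of complex IV that are named for other tissues, Cox6a2 and Cox8b had an order of arrays unlike that of their general partners. Cox6a2, the heart and muscle isoform, had levels of 2.30 and 2.39 on the arrays labelled Trsp-RIPKO, 1.62 and -0.24 on those labelled Trsp-Ins1KO, and 0.81 and 2.004 on the TrspFF arrays. Trsp-Ins1KO replicate 2 was far below the others, and the TrspFF arrays differed by more than 1 log2 unit. Trsp-RIPKO minus Trsp-Ins1KO was 1.66 (SE 0.714, limma adjusted p = 0.285) and 0.73 without Trsp-Ins1KO replicate 2, and Trsp-RIPKO minus TrspFF was 0.94 (SE 0.714, adjusted p = 0.455). Its general partner Cox6a1 had levels of 7.27 and 7.11 (Trsp-RIPKO), 7.44 and 7.43 (Trsp-Ins1KO), and 7.36 and 7.24 (TrspFF), between 7.11 and 7.44 on all 6 arrays. Markers of cortex and hippocampus ran in nearly the same order as Cox6a2: the mean level of 12 tested genes was -0.67 and -0.68 (Trsp-RIPKO), -1.39 and -2.97 (Trsp-Ins1KO), and -1.63 and -0.93 (TrspFF), 10 of them being well above background on all arrays. The muscle markers did not run in that order, and the part of either list in Cox6a2 was not tested.

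Cox8b, another heart and muscle isoform, had the lowest difference of all members in Trsp-Ins1KO against TrspFF. Its levels were -1.46 and -1.44 (Trsp-RIPKO), -1.94 and -3.03 (Trsp-Ins1KO), and -1.35 and -1.22 (TrspFF). Trsp-Ins1KO arrays were below the other 4, replicate 2 by far. The difference from TrspFF was -1.20 (SE 0.359, limma adjusted p = 0.134), or -0.65 without Trsp-Ins1KO replicate 2, the array that was also lowest for choroid plexus markers. Its general partner Cox8a had levels of 6.64 and 6.61 (Trsp-RIPKO), 6.89 and 6.75 (Trsp-Ins1KO), and 6.57 and 6.37 (TrspFF), with the Trsp-Ins1KO arrays at the top, 0.34 from TrspFF (SE 0.11, limma adjusted p = 0.147). The part of choroid plexus RNA in Cox8b was not tested.

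Other tissue isoforms varied. Cox7a1, the muscle isoform of Cox7a2, had levels of 0.80 and 0.77 (Trsp-RIPKO), 1.01 and 1.17 (Trsp-Ins1KO), and 0.85 and 0.55 (TrspFF), highest on the Trsp-Ins1KO arrays like the general subunits (0.39 from TrspFF, SE 0.135, limma adjusted p = 0.164). Cox4i2, an isoform of lung and of oxygen-sensing cells, had levels of -1.92 and -1.90 (Trsp-RIPKO), -2.29 and -1.998 (Trsp-Ins1KO), and -2.09 and -1.67 (TrspFF). Its TrspFF arrays spanned both Trsp-RIPKO arrays and overlapped Trsp-Ins1KO, and Trsp-RIPKO lay above Trsp-Ins1KO, by 0.23 (SE 0.181, limma adjusted p = 0.484). The testis isoform Cox6b2 had levels of -0.93 and -0.72 (Trsp-RIPKO), -0.43 and -0.81 (Trsp-Ins1KO), and -0.87 and -1.44 (TrspFF); both Trsp-Ins1KO arrays lay above TrspFF (0.53, SE 0.241, limma adjusted p = 0.24), and so did its general partner Cox6b1 (0.36, SE 0.0992, adjusted p = 0.12). Cox7b2, also of testis, had levels of -3.52 and -4.32 (Trsp-RIPKO), -3.58 and -3.62 (Trsp-Ins1KO), and -3.35 and -3.55 (TrspFF), with Trsp-RIPKO replicate 2 lowest and a difference of -0.47 from TrspFF in Trsp-RIPKO (SE 0.276, limma adjusted p = 0.353). Cox7a2l, which joins complexes III and IV, had levels of 4.44 and 4.41 (Trsp-RIPKO), 4.59 and 4.56 (Trsp-Ins1KO), and 4.42 and 4.34 (TrspFF) and stood at 0.20 in Trsp-Ins1KO against TrspFF. A dimmer Cox7a2l probe also gave 0.20 there, but had Trsp-RIPKO highest, with levels of 2.85 and 2.95 (Trsp-RIPKO), 2.82 and 2.81 (Trsp-Ins1KO), and 2.54 and 2.69 (TrspFF). Its brightest probe had a flagged spot on Trsp-Ins1KO replicate 1 and was left out.

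Ndufa4 and Ndufa4l2 are named for complex I, but Ndufa4 is known as a subunit of complex IV, and Ndufa4l2 is its hypoxia-inducible paralog, found in pericytes. Ndufa4 had levels of 4.08 and 4.17 (Trsp-RIPKO), 4.36 and 4.25 (Trsp-Ins1KO), and 4.31 and 4.29 (TrspFF), a narrow range with the Trsp-RIPKO arrays lowest. Ndufa4l2 had levels of -1.32 and -1.38 (Trsp-RIPKO), -2.01 and -1.96 (Trsp-Ins1KO), and -2.24 and -1.59 (TrspFF). Trsp-RIPKO was highest and TrspFF replicate 1 lowest. Trsp-RIPKO minus TrspFF was 0.56 (SE 0.222, limma adjusted p = 0.215), or 0.88 without TrspFF replicate 2, and Trsp-RIPKO minus Trsp-Ins1KO was 0.63. The mean level of 9 tested pericyte and smooth muscle markers was -1.44 and -1.31 (Trsp-RIPKO), -1.94 and -1.97 (Trsp-Ins1KO), and -1.62 and -1.35 (TrspFF), also lower on the Trsp-Ins1KO arrays, and 8 of these markers were well above background on all arrays. Their part in Ndufa4l2 was not tested. For 11 hypoxia-response genes the median difference was 0.10 in Trsp-RIPKO and 0.12 in Trsp-Ins1KO, each against TrspFF, with 0 past the limma threshold. At an unadjusted limma p under 0.05 there were 3 and 2 of the 11, against 24% and 26% of all genes.

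**Figure D4:**
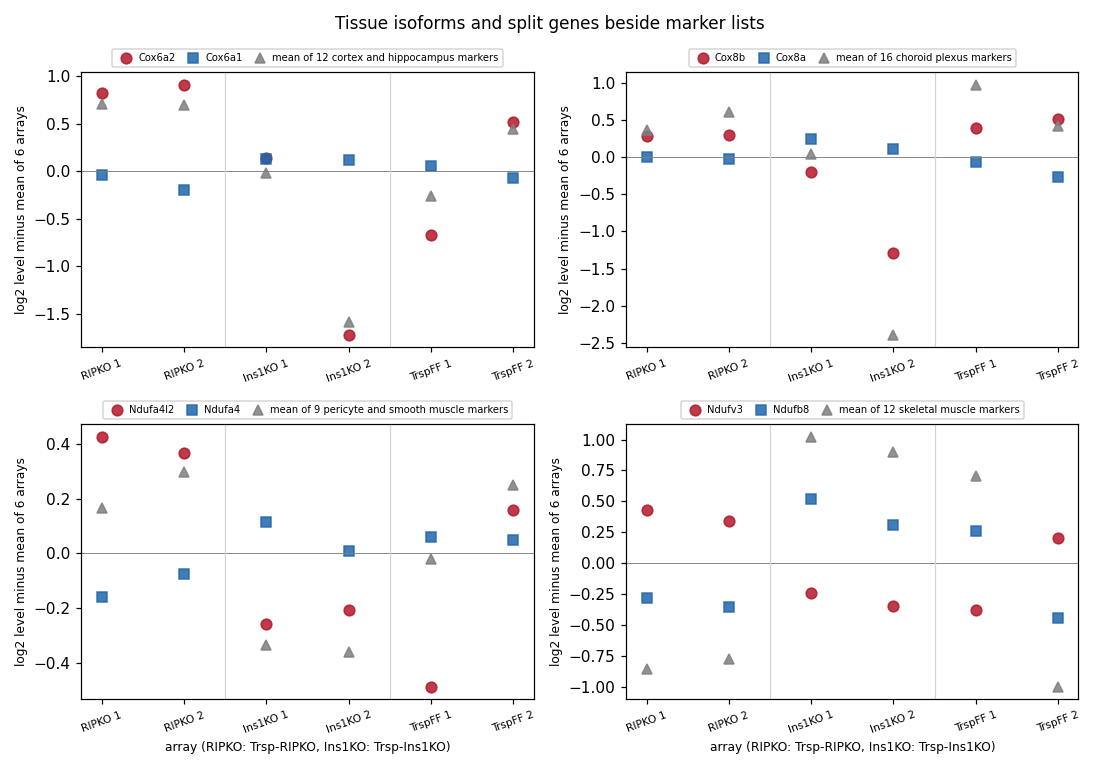
Each panel plots, for the 6 arrays on the x axis, the log2 level minus the mean over the 6 arrays of 2 members (circle and square) and of the mean of 1 marker list (triangle). Cox6a2 and the cortex markers, and Cox8b and the choroid plexus markers, are lowest on Trsp-Ins1KO replicate 2, while Cox6a1 and Cox8a are not. In the lower right panel Ndufb8 and the muscle markers are high, and Ndufv3 is low, on both Trsp-Ins1KO arrays and on TrspFF replicate 1.

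Complex V consists of a catalytic head, stalks and a membrane ring. The head subunits Atp5a1 (alpha) and Atp5b (beta), which form ATP, stood at 0.063 and 0.12 in Trsp-Ins1KO against TrspFF and at -0.20 and -0.21 in Trsp-RIPKO. In the central stalk, Atp5e (epsilon) had levels of 4.94 and 4.96 (Trsp-RIPKO), 5.13 and 5.04 (Trsp-Ins1KO), and 4.76 and 4.69 (TrspFF). All 4 knockout arrays lay above both TrspFF arrays, by 0.22 in Trsp-RIPKO (SE 0.0838, limma adjusted p = 0.199) and 0.36 in Trsp-Ins1KO (SE 0.0838, adjusted p = 0.0963). Atp5d (delta), next to it in the stalk, stood at 0.20 and 0.34. Atp5o, the protein that links the peripheral stalk to the head and confers oligomycin sensitivity, had levels of 3.56 and 3.47 (Trsp-RIPKO), 3.70 and 3.85 (Trsp-Ins1KO), and 4.01 and 3.77 (TrspFF). Its Trsp-RIPKO arrays were lowest, -0.37 from TrspFF (SE 0.121, limma adjusted p = 0.165), and Atp5o was the 1 complex V member below 0 in Trsp-Ins1KO (-0.11, SE 0.121, adjusted p = 0.583).

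Membrane subunits of ATP synthase gave the highest complex V values in the arrays labelled Trsp-Ins1KO. Atp5k (subunit e), which helps ATP synthase form dimers, had levels of 4.94 and 4.72 (Trsp-RIPKO), 5.12 and 5.14 (Trsp-Ins1KO), and 4.71 and 4.61 (TrspFF). Both Trsp-Ins1KO arrays were highest, 0.48 from TrspFF (SE 0.11, limma adjusted p = 0.0958). A second Atp5k probe gave 0.22 in Trsp-Ins1KO and -0.057 in Trsp-RIPKO, where the first gave 0.17, each against TrspFF. Atp5j2 (subunit f) had levels of 5.10 and 4.93 (Trsp-RIPKO), 5.55 and 5.43 (Trsp-Ins1KO), and 5.18 and 4.90 (TrspFF). Its Trsp-Ins1KO arrays again lay above the other 4, and its difference of -0.48 in Trsp-RIPKO against Trsp-Ins1KO (SE 0.134, limma adjusted p = 0.263) was the lowest of complex V. The ring subunit genes Atp5g2 and Atp5g3, which encode the same mature protein, stood at 0.29 and 0.042 in Trsp-Ins1KO against TrspFF. All 16 complex V members were lower in Trsp-RIPKO than in Trsp-Ins1KO, from -0.48 to -0.11.

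Different probes of 1 gene sometimes disagreed. Of 21 members with several tested probes, 10 had differences of both signs in Trsp-RIPKO against TrspFF, 8 in Trsp-Ins1KO against TrspFF (Atp5c1, Atp5l, Atp5pb, Cox7c, Ndufv3, Sdhc, Uqcrb and Uqcrq), and 3 between the knockouts. A second probe of Atp5c1 (gamma subunit) had levels of 1.99 and 1.95 (Trsp-RIPKO), 2.28 and 2.20 (Trsp-Ins1KO), and 3.01 and 3.02 (TrspFF). All 4 knockout arrays were lower than TrspFF there. With each probe tested by itself, an alternative added after seeing the data, that probe passed limma in both comparisons with TrspFF, at -1.04 in Trsp-RIPKO (SE 0.082, adjusted p = 0.0237) and -0.77 in Trsp-Ins1KO (SE 0.082, adjusted p = 0.0335). The brighter Atp5c1 probe gave -0.13 and 0.18. The dimmest of 5 probes of Atp5l (subunit g) had levels of 2.33 and 2.26 (Trsp-RIPKO), 2.64 and 2.59 (Trsp-Ins1KO), and 3.23 and 3.02 (TrspFF), and its brightest probe gave -0.11 and 0.15. Between the knockouts the probes were closer to each other, and 9 of the 109 tested probes were higher in Trsp-RIPKO. For Ndufb11 the brighter of 2 probes had a flagged spot on Trsp-RIPKO replicate 2 and was left out; it had levels of 4.80 on Trsp-RIPKO replicate 1, 5.10 and 5.005 on the Trsp-Ins1KO arrays, and 4.82 and 4.67 on the TrspFF arrays.

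Among 50 tested assembly factors, which build the complexes, 0 passed limma in any comparison. At an unadjusted p under 0.05 there were 9, 13 and 9, shares close to or below the 24%, 26% and 18.4% of all genes. Of the 50, 39 were higher in Trsp-Ins1KO than in TrspFF and 5 were higher in Trsp-RIPKO than in Trsp-Ins1KO, and the medians were -0.06 in Trsp-RIPKO against TrspFF, 0.11 in Trsp-Ins1KO against TrspFF and -0.17 between the knockouts. The smallest p in Trsp-RIPKO against TrspFF belonged to the complex I factor Ndufaf8 (-0.55, SE 0.105) and to Cox10, which makes the heme of complex IV (-0.46, SE 0.0926), and in Trsp-Ins1KO to the complex III factor Uqcc3 (0.55, SE 0.0941) and the complex I factor Ndufaf3 (0.45, SE 0.0798). Between the knockouts they were the complex I factor Ndufaf2 (-0.35) and Coa4 (-0.98). Coa4 had levels of -1.07 and -0.93 (Trsp-RIPKO), -0.26 and 0.20 (Trsp-Ins1KO), and -0.62 and -1.23 (TrspFF), with the Trsp-Ins1KO arrays highest. Other subunits and the mobile carriers, 25 genes, had medians of 0.07, 0.12 and -0.10; cytochrome c, Cycs, differed by -0.29 between the knockouts, and Atpif1, the inhibitor of ATP synthase, by 0.55 in Trsp-Ins1KO against TrspFF (SE 0.0953, limma adjusted p = 0.0693).

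Regulators of mitochondrial biogenesis held the 1 gene of these mitochondrial lists that passed limma. Ppargc1b, a coactivator that raises respiratory gene expression, had levels of -2.36 and -2.41 on the arrays labelled Trsp-RIPKO, -2.33 and -2.39 on those labelled Trsp-Ins1KO, and -1.37 and -1.53 on the TrspFF arrays. It fell in both knockouts without overlap, by 0.93 in Trsp-RIPKO (SE 0.0951, limma adjusted p = 0.0302) and by 0.91 in Trsp-Ins1KO (SE 0.0951, adjusted p = 0.0312), each against TrspFF, where slide and genotype cannot be told apart. With any 1 array left out its differences lay between -1.02 and -0.83, and it passed the threshold in 1 of those fits, Trsp-RIPKO without TrspFF replicate 2 (limma adjusted p = 0.0429), the others giving 0.0526 to 0.197. Both calls were also lost with no filter (limma adjusted p = 0.0898 in Trsp-RIPKO and 0.0846 in Trsp-Ins1KO), with only the 2 groups compared (0.0858 and 0.101) and with the replicate block (0.0758 and 0.0757). The related coactivator Ppargc1a had levels of 1.44 and 1.39 (Trsp-RIPKO), 1.07 and 1.08 (Trsp-Ins1KO), and 1.60 and 1.93 (TrspFF). The arrays of both knockouts thus lay below both TrspFF arrays, as for Ppargc1b. Between the knockouts the Ppargc1a difference was 0.33 (SE 0.129, limma adjusted p = 0.271). The median of the 25 regulators was -0.10 in Trsp-RIPKO, -0.04 in Trsp-Ins1KO and -0.02 between the knockouts.

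Enzymes of the citric acid cycle, which supply the chain with NADH and succinate, had medians of 0.07, 0.07 and -0.04 over 19 genes, with 0 past limma. At an unadjusted limma p under 0.05 there were 1, 5 and 2 of the 19, against 24%, 26% and 18.4% of all genes. Pdhb, a subunit of pyruvate dehydrogenase, had levels of 3.60 and 3.63 (Trsp-RIPKO), 2.38 and 2.43 (Trsp-Ins1KO), and 2.85 and 3.85 (TrspFF), low on both Trsp-Ins1KO arrays and on TrspFF replicate 1. Import and chaperone genes (25 tested) had medians of 0.04, 0.24 and -0.17; the chaperone Hspe1 had levels of 2.70 and 2.63 (Trsp-RIPKO), 3.67 and 4.12 (Trsp-Ins1KO), and 2.90 and 2.83 (TrspFF). Both Trsp-Ins1KO arrays were highest for Hspe1, 1.03 from TrspFF (SE 0.165, limma adjusted p = 0.0621). Membrane carriers (12 tested) had medians of -0.05, 0.25 and -0.26, among them the phosphate carrier Slc25a3 at -0.44 in Trsp-RIPKO against TrspFF and the neuronal mitochondrial creatine kinase Ckmt1 at 0.49 in Trsp-Ins1KO against TrspFF.

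Ribosomal protein genes ran alongside the subunit genes. Mitochondrial ribosomal proteins (77 tested) had medians of 0.02 in Trsp-RIPKO against TrspFF, 0.21 in Trsp-Ins1KO against TrspFF and -0.18 between the knockouts, with 0 past limma. Genes named for the cytosolic ribosome (89 tested) had medians of 0.01, 0.29 and -0.27. At an unadjusted limma p under 0.05 there were 11, 33 and 19 of the 77, and 13, 48 and 44 of the 89. The shares of all tested genes were 24%, 26% and 18.4%. With quantile normalization these 2 lists had medians of 0.15 and 0.15 in Trsp-Ins1KO against TrspFF, against 0.037 for the subunit genes. Rps15 rose by 0.69 in Trsp-Ins1KO (SE 0.0859, limma adjusted p = 0.0406) and Rps21 fell by 1.19 in Trsp-RIPKO (SE 0.131, adjusted p = 0.0341), each against TrspFF; with 1 array left out Rps15 no longer passed, and Rps21 passed only without TrspFF replicate 2 (limma adjusted p = 0.0441). Rps15 also lost its call with quantile normalization (0.49, limma adjusted p = 0.0616), cyclic loess (0.50, 0.0576), the dimmest probe (0.0599), no filter (0.111), only the 2 groups (0.122) and the replicate block (0.101). Rps21 lost it with no filter (limma adjusted p = 0.0945), only the 2 groups (0.082) and the replicate block (0.0716). Under the exchanged names of the deposited table, the same 2 comparisons hold the arrays of the other knockout. They gave 0.46 for Rps15 (limma adjusted p = 0.0798) and -0.83 for Rps21 (0.0605). The 26 listed mitochondrially encoded genes had 0 named probes, so the nuclear and mitochondrial subunits could not be set beside each other.

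**Figure D5:**
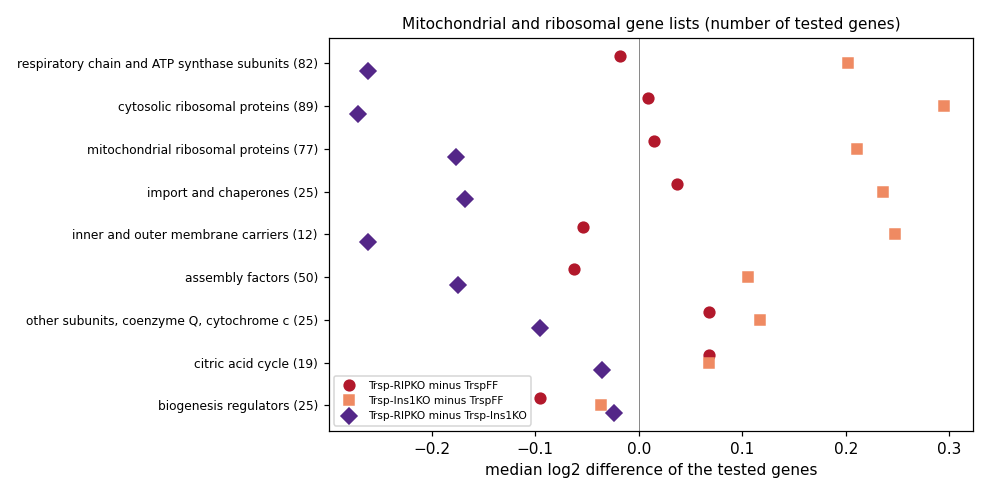
The median log2 difference of the tested genes of each list is plotted on the x axis for the 3 comparisons (circle, square and diamond), with the subunit genes in the top line. Subunit genes, ribosomal proteins, import genes and carriers lie between 0.20 and 0.29 for Trsp-Ins1KO minus TrspFF, and the citric acid cycle and biogenesis regulators at 0.07 and -0.04.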

How the data were processed

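Per the file headers, each spot's intensity in the authors' scanner files is the background-subtracted processed signal of Agilent Feature Extraction 10.7.3.1, with quality flags. The deposited value table holds log2 values centred on the median of each probe; the authors' scaling of the arrays is not known here. Of 43020 spots, flagged ones were left out and spots of a probe averaged (39429 probes, 118 left out, 66.1% with a symbol through RefSeq accessions). Probes were kept (28065) if some genotype had both of its arrays well above background, and the brightest kept probe stood for a gene (22863 genes). Differences were fitted by limma 3.58.1 under R 4.3.3 (lmFit, then eBayes, over the 6 arrays, residual 3 and prior 1.87 degrees of freedom), with Benjamini-Hochberg adjustment over all genes at 0.05; the method was tested on simulated data. The SD of the difference between replicate arrays was 0.412 (Trsp-RIPKO), 0.442 (Trsp-Ins1KO) and 0.511 (TrspFF), and 2 arrays per group limit the precision. Members and lists were chosen with earlier results of these data known, so no p is given for a list. Full values are given for the highest and lowest member of each complex in each comparison and for tissue isoforms; Ndufa2 and Ndufs7 were named after their values were seen. Other pathway genes are named when past the threshold or among those with the smallest p. The name pattern for cytosolic ribosomal proteins also takes Rps6kb2, a kinase. Alternatives covered background correction, scaling, filters, the probe of a gene, moderation, the groups fitted, a replicate block, the deposited table and leaving out each array. Single values of some members are not reported here.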

Additional observations from a re-analysis of the deposited data

Results flagged for a closer look

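For 7 members both Trsp-Ins1KO arrays lay above both TrspFF arrays and both Trsp-RIPKO arrays lay below them (8.54% of 82, against 2.23% of all tested genes). They come from all 5 complexes, and their differences, Trsp-RIPKO minus Trsp-Ins1KO, were -0.39 for Ndufb6 (complex I), -0.36 for Sdhb (II), -0.34 for Uqcrb and -0.21 for Uqcrc2 (III), -0.39 for Cox6c (IV), and -0.33 for Atp5b and -0.35 for Atp5mpl (V). The arrangement holds for the brightest probe of a gene: by a dimmer probe Trsp-RIPKO overlapped TrspFF for Ndufb6 (-0.065) and Sdhb (0.0043), and Trsp-Ins1KO lay below TrspFF for Uqcrb (-0.19). Whether the 2 knockouts' differences from TrspFF differ for these genes is the comparison between the knockouts, in which limma called 0 of them. There the smallest limma adjusted p among all members was 0.263. An unadjusted p under 0.05 was found for 41 of 82, against 18.4% of all genes. The opposite arrangement, with Trsp-RIPKO above and Trsp-Ins1KO below TrspFF, was found for 0 of 82 members, against 1.65% of all tested genes.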

How the results depend on the processing

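Median differences of the 82 genes are given for Trsp-RIPKO against TrspFF, Trsp-Ins1KO against TrspFF and Trsp-RIPKO against Trsp-Ins1KO in that order. Median scaling gave 0.091, 0.29 and -0.24, quantile normalization -0.023, 0.037 and -0.10, and cyclic loess -0.027, 0.045 and -0.11. Leaving out 1 array gave -0.083 to 0.028, 0.16 to 0.25, and -0.30 to -0.21. With the names of the deposited table the medians were 0.20, -0.0195 and 0.26; complexes I to V stood at 0.27, 0.20, 0.22, 0.25 and 0.26 between the knockouts, and complex II at 0.15 and -0.15 in the comparisons with TrspFF. Single members turned with those names too: Cox6a2 was -0.72 in Trsp-RIPKO and Ndufv3 0.47 in Trsp-Ins1KO, each against TrspFF, and between the knockouts Ndufv3 was -0.68, Ndufb8 0.74, Sdhb 0.36, Uqcrb 0.34, Cox6a2 -1.66, Cox7a2 0.41 and Atp5j2 0.48. The exchanged names are the construction of that alternative. By the dimmest probe Sdhc was -0.29 in Trsp-RIPKO and Ndufv3 0.25, Cox7c -0.25 and Uqcrb -0.19 in Trsp-Ins1KO, each against TrspFF, and Ndufv3 -0.16 between the knockouts; the cause was not tested. Members past the limma threshold numbered 0 in all comparisons as reported. In Trsp-Ins1KO against TrspFF there were 10 with trend and robust moderation (Ndufa2, Ndufa3, Ndufa6, Ndufa11, Ndufs6, Ndufs7, Uqcr11, Cox7c, Atp5e and Atp5k), 3 with normexp (Ndufa3, Ndufa11 and Ndufs7), 1 with a filter on all 6 arrays (Ndufa3), and 1 by the dimmest probe or each probe by itself (Atp5c1). Of all 22863 tested genes limma called 1240 with trend and robust moderation, 596 with normexp and 407 by the dimmest probe there, against 416 as reported. The filter on all 6 arrays called 514 of 21108. By the dimmest probe 377 of all 22863 genes were called in Trsp-RIPKO against TrspFF. In Trsp-RIPKO against TrspFF there were 2 by the dimmest probe or each probe by itself (Atp5c1 and Atp5l). Members past the threshold with 1 array left out are not counted here, because such a fit leaves 1 array in a group. Between the knockouts 0 members passed under any alternative, although fitting those 2 groups alone called 318 genes. With the replicate block 0 members passed in any comparison; the numbers share no known origin, and the deviations of same-numbered arrays correlated at -0.022, -0.025 and 0.089.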
